A study of Homo sapiens with 4 samples.

Results

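Circular RNAs from the genes of the regulatory subunits of phosphorylase kinase were examined: PHKB, which encodes the beta subunit, and PHKA1 and PHKA2, which encode the muscle-type and liver-type alpha subunits. A circular RNA forms when a downstream splice donor joins an upstream splice acceptor, and each such back-splice had 1 row in the deposited count table. A row was a member when 1 of the 3 gene symbols stood among the genes listed for it and its type was not antisense. This rule took 172 of 211599 rows, of which 149 named PHKB, 18 named PHKA2 and 5 named PHKA1. The members held 6634 of 1702290 counts. The genes were selected on measured values of these libraries: a 14-exon PHKB circle had one of the smallest p-values among circles with a lower level after HNRNPL knockdown. The differences between the groups given below for PHKB, PHKA1 and PHKA2 therefore belong to the contrast that chose them, and they are a description with no test.

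Phosphorylase kinase is an assembly of alpha, beta, gamma and delta subunits that activates glycogen phosphorylase and so starts the release of glucose from glycogen. The gamma subunit, encoded by PHKG1 or PHKG2, carries the kinase activity, the delta subunit is calmodulin, and the alpha and beta subunits restrain the kinase until cAMP-dependent protein kinase phosphorylates them. Exonic circles such as those described here are spliced from the same precursor as the mRNA, lack a cap and a poly(A) tail, and are turned over slowly. HNRNPL is a nuclear RNA-binding protein that prefers CA-rich sequence and regulates splicing.

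All libraries came from a radiation-resistant derivative of MDA-MB-468, an established line of triple-negative breast cancer cells, which had been selected with fractionated irradiation. The control group (n = 2) carried a control short hairpin RNA, and the knockdown group (n = 2) stably carried the hairpin named shHNRNPL-1, so that 1 hairpin stands for the knockdown and every group shares the irradiation history. The series calls the libraries of a group biological replicates. RNA was copied by the Induro reverse transcriptase, which can travel around a circle repeatedly, then amplified with phi29 polymerase and read on a nanopore instrument.

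The libraries held between 282737 and 556578 counts. A level of 3 counts, about the upper 95% bound for a count of 0, was worth between 0.539 and 1.06 per 100000. Control 1 stood apart, with 19.7% of its counts in intron-type circles against at most 10.6% in the others. The log2 levels of 4944 circles with at least 40 counts correlated at r = 0.72 between the controls and r = 0.92 between the knockdowns, which is a correlation across circles and not across replicates. No row named HNRNPL, so the knockdown rests on the labels. Of the epithelial and basal markers, EPCAM had 108 circle counts, EGFR 200, CDH1 42, KRT5 2, and KRT8 and KRT18 had none. COL1A1, COL1A2, PTPRC and PECAM1, which mark fibroblasts, leukocytes and endothelium, had none, and VIM had 3.

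PHKB was among the genes with the most circular RNA in these cells. It ranked 24 of 14794 host genes by summed count, where a host gene is any gene named by a circle that is not antisense. The gene (ENSG00000102893.18) lies on the plus strand of chromosome 16 at 47461299 to 47701523 in GRCh38.p14, per the RefSeq gene table. Of its 149 circles, 140 had a count, 57 were seen in 1 library, 30 in all 4, and 15 had at least 40 counts. Abundance was concentrated in few circles, since the 10 most abundant held between 83.9% and 84.8% of PHKB counts in each library. The 104 circles with 1 to 9 counts together held 5.01%. Of the rows, 80 also named the 5S rRNA pseudogene RNA5SP425 or the gene listed as ENSG00000262038, and their counts were counted for every gene named. These rows held most of the counts and included all 15 circles with at least 40 counts. Circles that name RNA5SP425 had 1988 and 2582 counts in controls 1 and 2, and 649 and 1046 in knockdowns 1 and 2. All PHKB circles had 2078, 2714, 681 and 1111 in the same order. The part of them that belongs to a gene other than PHKB was not tested. Antisense rows of PHKB numbered 8 and held 12 counts, and they were not counted.

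PHKB circles came chiefly from the 5' part of the gene, and most shared the same exons. Nearly all counts began at 1 of 2 exons. The later one spans chr16:47497399-47497488 (90 nt), and 16 circles that began at its first base held 47.9% of PHKB counts in control 1 (95% Wilson interval 45.8 to 50.1), 49.2% in control 2 (47.3 to 51.1), 56.1% in knockdown 1 (52.3 to 59.8) and 60.1% in knockdown 2 (57.2 to 63.0). This first base lies 36.1 kb from the RefSeq start of the gene. The earlier exon begins 2.58 kb from that start and ends at 47463993. The table gives it 2 first bases, 47463882 (112 nt) and 47463899 (95 nt), which are 17 nt apart. Together 27 circles began there and held 46.2% (44.1 to 48.3) and 44.6% (42.8 to 46.5) in the controls, and 37.7% (34.2 to 41.4) and 33.2% (30.5 to 36.04) in the knockdowns. The later start thus took a larger share, and the earlier start a smaller one, in both knockdown libraries than in either control. The intervals cover counting error only, because the amplified reads carry no molecular identifiers.

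The 2 first bases of the earlier exon were never used together. Over the 27 downstream ends joined to the earlier exon, 0 had counts at both positions. Among the most used ends, the one at 47610920 was joined to 47463882 alone (446 counts), whereas those at 47515601 (850 counts), 47547548 (308) and 47596531 (290) were joined to 47463899 alone. Whether the cells use both acceptors, or the circle caller gave 1 position to all reads of an end, was not tested. The 2 positions are therefore pooled as the early start, and 47497399 is called the late start.

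The exon content of the circles was lopsided along the gene. The 5 exons from 47497399 to 47515601 were each held by circles with between 94.1% and 96.1% of PHKB counts in every library. The next exon, at 47547433, was held by 65.6% and 66.7% in the controls, against 66.8% and 63.3% in the knockdowns. The exon at 47610826 was held by between 31.0% and 34.8%, and the one at 47641035 by between 7.07% and 10.6%. The 3' part of the gene, beyond 47669417, had no exon held by circles with 40 counts in total. Among the exons just named, the share of PHKB counts separated the groups at 47497399 alone, where the lower control had 95.62% and the higher knockdown 95.59%. Downstream of the start the profile of the knockdowns was lower in level and like that of the controls in shape.

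**Figure D1:**
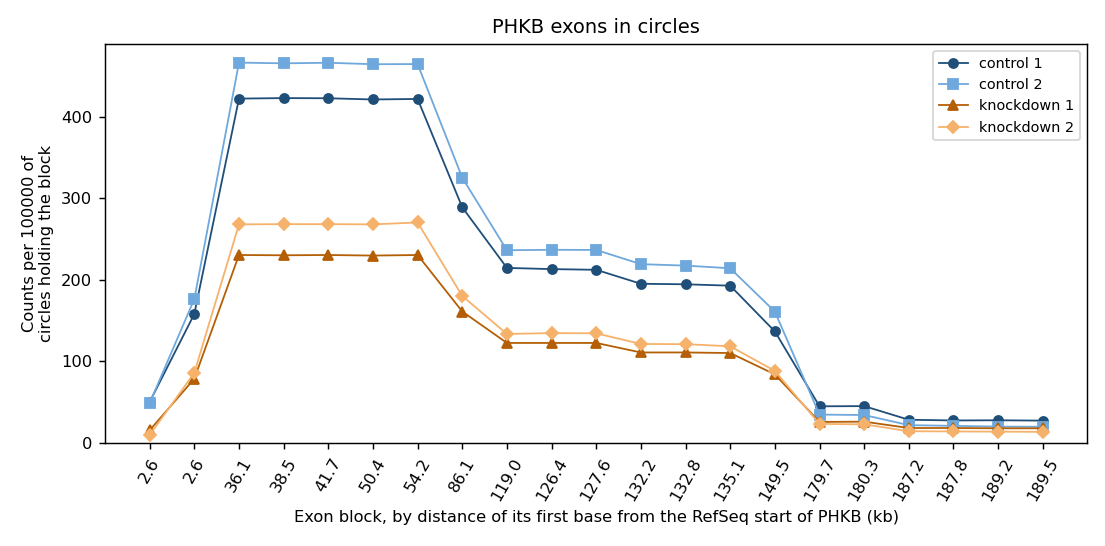
Circle level across the exons of PHKB, for 21 exon blocks held by circles with at least 300 counts in total. The horizontal axis lists the blocks in gene order by distance from the RefSeq start (kb), the vertical axis gives the summed counts per 100000 of circles that hold the block, and each line is 1 library. All lines peak over the 5 blocks between 36.1 and 54.2 kb, where both controls lie at 421 or more and both knockdowns at 270.1 or less, and all drop after 149.5 kb.

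Nearly all PHKB counts had a junction called at a canonical splice site. The share of such junctions over all circles was not counted, and how far the circle caller sets these positions was not tested. In each library between 95.4% and 96.5% of PHKB counts belonged to circles whose junction lay exactly at the canonical AG acceptor and GT donor, and intron-type circles held between 1.62% and 2.41%. The mean circle, weighted by counts, was 1042 nt and 1013 nt long in the controls, against 1075 nt and 998 nt in the knockdowns. The group means were 1028 ± 20.9 nt and 1036 ± 54.8 nt (SD, n = 2), a difference smaller than the spread. At 681 counts a library, the smallest PHKB total, 57.9 ± 2.06 different circles would be found in controls and 56.2 ± 1.11 in knockdowns (SD, n = 2), a difference smaller than the spread of the controls. Of the circles with a count, 24 had more than 1 internal exon structure listed, with up to 5, and the table gives no count for each structure.

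Summed over its circles, PHKB was lower after knockdown, at 440 and 488 counts per 100000 in controls 1 and 2 and 241 and 284 in knockdowns 1 and 2. These are 2078, 2714, 681 and 1111 counts. The group means were 464 ± 33.8 and 263 ± 30.8 (SD, n = 2), which is 1.77-fold lower, and the groups did not overlap. A like separation was common, since 39.8% of 4775 host genes with at least 40 counts had both knockdown libraries below both controls. The typical host gene was also lower, with a median log2 fold change of -0.26 in edgeR with TMM scaling and -0.60 when scaled to the library total. The fitted value of PHKB was -0.52 with TMM and -0.84 with the library total, so that it lay -0.26 and -0.24 from these medians on the log2 scale. It stood at percentile 40.25 of the 8388 host genes fitted. With all 4 libraries the lower sum was thus near the middle of what host genes showed. This place changed with the control used. Without control 1 the fitted value of PHKB was -0.65 against a host gene median of 0.016. Without control 2 it was -0.17 against a median of -0.13. The linear PHKB mRNA was not measured, so fewer transcripts and fewer circles per transcript cannot be told apart, nor can fewer cells with the circles and less RNA per cell.

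The single circles of PHKB were nearly all lower in the knockdowns. Of the 15 with at least 40 counts, 13 had both knockdown libraries below both controls and 0 had both above. Over all circles of that abundance the share with both knockdowns below both controls was 28.9%. Without control 1, which stood apart, 14 of the 15 lay below control 2 in both knockdowns, against 50.2% of all such circles. The circles share exons and the same 2 starts, so they are not independent of each other. The control to knockdown ratio ranged from 1.29 to 4.31 over the 15, and 1 circle was at least 4-fold lower, as were 3.16% of all circles of that abundance. Their median log2 ratio was -0.83, where the median over 328 genes with 5 or more such circles was -0.16. The SD of the log2 ratios within PHKB was 0.56, rank 83 of these 328 genes from the most even, against a median of 0.84. Among the 36 PHKB circles with at least 10 counts, 33 had a negative fitted log2 fold change, and the range was -2.85 to 0.85. Their median was -0.95, where the median over all 21576 fitted circles was also negative, at -0.39. The share of negative values over all circles was not counted. In the test over all 21576 circles with at least 10 counts, 0 (0%) were called by the quasi-likelihood test of edgeR at an adjusted p of 0.05, while 2895 had an unadjusted p under 0.05. DESeq2 called 1085.

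**Figure D2:**
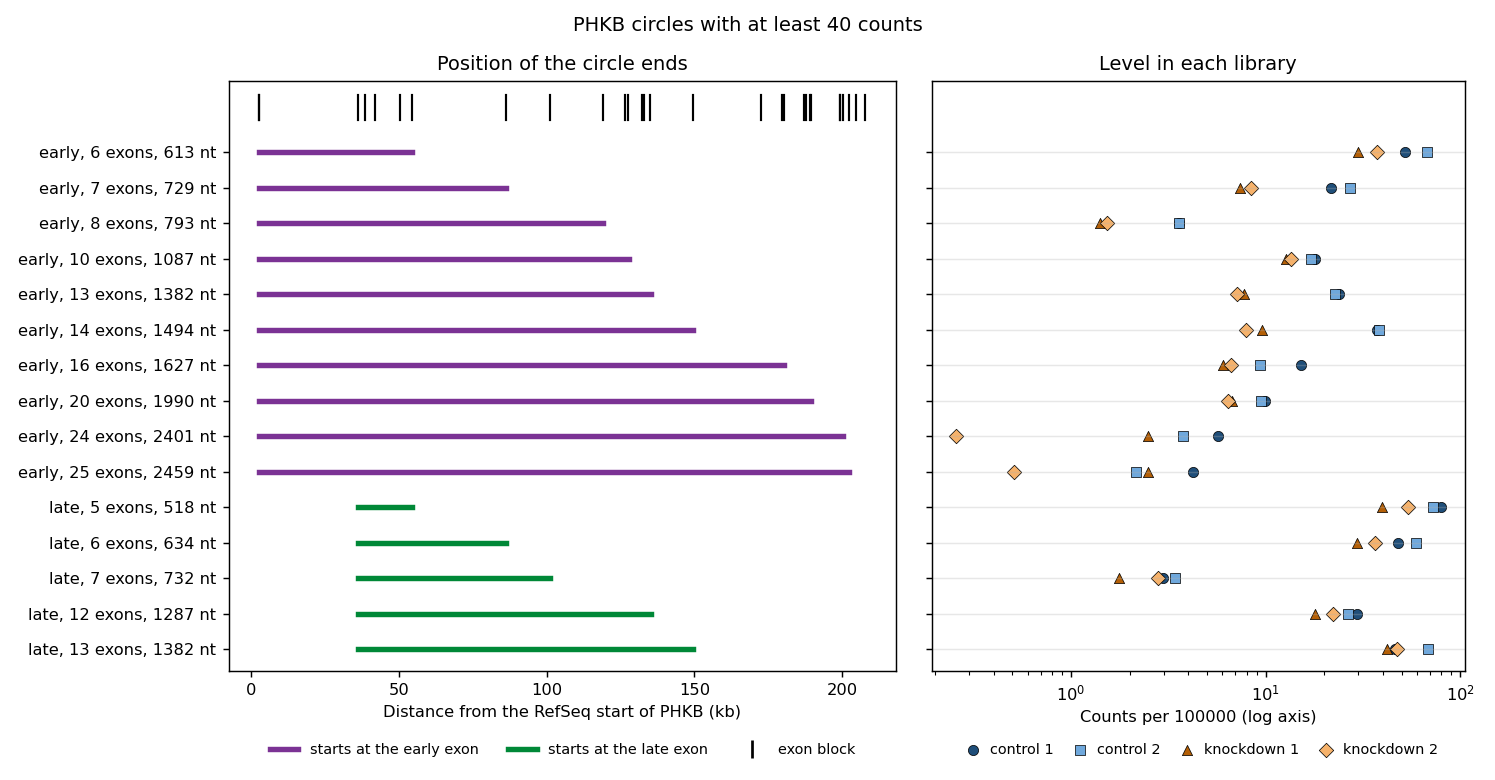
The 15 PHKB circles with at least 40 counts. Left, each bar joins the first and last base of a circle by distance from the RefSeq start of PHKB (kb), coloured by start, with exon blocks as ticks on top. Right, the counts per 100000 of the same circle in each library on a log axis, 1 point per library. The knockdown points lie left of both control points for 13 of the 15 circles, and the ratio of group means is over 3 for the early-start circles of 7, 13, 14 and 24 exons.

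Circles from the late start formed the larger part. The most abundant PHKB circle joined 47515601 to 47497399 and held 5 exons in 518 nt. It stood at 79.6 and 72.9 counts per 100000 in the controls, against 39.6 and 54.0 in the knockdowns. The means of 76.3 ± 4.70 and 46.8 ± 10.2 (SD, n = 2) did not overlap in their libraries and differed 1.63-fold. The 13-exon circle from 47497399 to 47610920 (1382 nt) stood at 46.4 and 68.3 in the controls, against 42.1 and 47.1 in the knockdowns. It was the only one of the 5 late-start circles with 40 or more counts whose groups overlapped, because control 1 lay below knockdown 2. The 6-exon circle from 47497399 to 47547548 (634 nt) had 47.8 and 59.7 in the controls, against 29.4 and 36.6 in the knockdowns, 1.63-fold lower. The 12-exon circle from 47497399 to 47596531 (1287 nt) had 29.6 and 26.4 in the controls, against 18.0 and 22.3 in the knockdowns, 1.39-fold lower. In all, circles from the late start went from 211 and 240 to 135 and 171 per 100000, a 1.47-fold lower mean.

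Circles from the early start showed a wider range. The 14-exon circle from 47463882 to 47610920 (1494 nt), the one that drew attention to the gene, had 176 and 212 counts in the controls, against 27 and 31 in the knockdowns. This is 37.3 and 38.1 per 100000 against 9.55 and 7.94, a 4.31-fold lower mean with a narrow spread in both groups (37.7 ± 0.591 and 8.74 ± 1.14, SD, n = 2). The 13-exon circle from 47463899 to 47596531 (1382 nt) had 23.9 and 22.8 in the controls, against 7.78 and 7.17 in the knockdowns, 3.13-fold lower. The 7-exon circle from 47463899 to 47547548 (729 nt) had 21.8 and 27.1 in the controls, against 7.43 and 8.45 in the knockdowns, 3.08-fold lower. In these 3 circles every knockdown library lay below the lower control by more than the distance between the controls. The first of them was chosen on this same contrast, and the share of all circles with such a gap was not counted.

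Among the 10 most abundant PHKB circles, the other 3 from the early start were closer to the gene's sum. The 6-exon circle from 47463899 to 47515601 (613 nt), the most abundant of them, had 52.1 and 67.2 in the controls, against 29.7 and 37.4 in the knockdowns, 1.78-fold lower. The 10-exon circle to 47589102 (1087 nt) had 18.0 and 17.1 in the controls, against 12.7 and 13.6 in the knockdowns, 1.33-fold lower. The 16-exon circle to 47641692 (1627 nt) had 15.2 and 9.34 in the controls, against 6.01 and 6.66 in the knockdowns, 1.94-fold lower. These also did not overlap between groups. Of the early-start circles with fewer counts, the 24-exon circle from 47463882 to 47661800 (2401 nt) had 27 and 21 counts in the controls, against 7 and 1 in the knockdowns, a 3.47-fold lower mean per 100000. The 8-exon circle from 47463899 to 47580358 (793 nt) had 17 and 20 counts, against 4 and 6, 2.44-fold lower. The 20-exon circle to 47650921 (1990 nt) was 1.48-fold lower, and the 25-exon circle from 47463882 to 47663734 (2459 nt), 2.14-fold lower in its mean, overlapped between groups. As a whole, early-start circles had 203 and 218 per 100000 in the controls, against 90.9 and 94.5 in the knockdowns. That mean was 2.27-fold lower, against 1.47-fold from the late start.

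The balance of the 2 starts is free of library scaling, since both counts come from the same gene and library. For each late-start count there were 0.964 and 0.907 early-start counts in the controls, against 0.673 and 0.552 in the knockdowns. Group means were 0.935 ± 0.0401 and 0.613 ± 0.0851 (SD, n = 2), and the groups did not overlap. With 2 libraries against 2, an exact permutation test cannot go below p = 0.333. When compared at the same downstream end, the ratio at 47547548 was 0.456 and 0.455 in the controls, against 0.253 and 0.231 in the knockdowns. At 47596531 it was 0.807 and 0.864 in the controls against 0.431 and 0.322. At 47610920 it was 0.804 and 0.558 in the controls against 0.227 and 0.168. At these 3 ends early-start circles were scarcer beside late-start circles in both knockdowns. The nearest end, 47515601, gave 0.654 and 0.921 in the controls, against 0.750 and 0.692 in the knockdowns, which overlapped. The end at 47610920 carries the circle that led to the choice of the gene. Without it the ratio was 1.01 and 1.05 in the controls, against 0.875 and 0.698 in the knockdowns, still separate. This comparison was drawn up after the values had been seen.

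**Figure D3:**
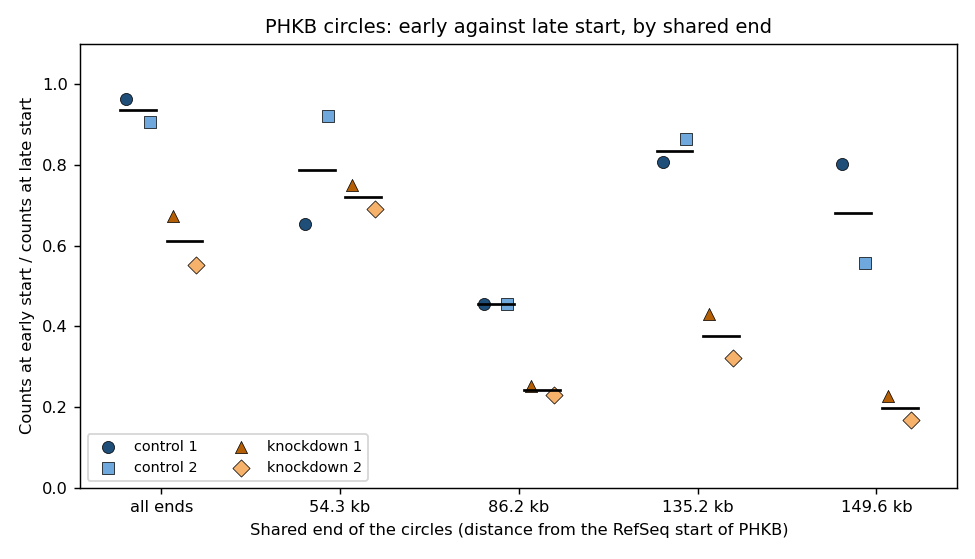
Early-start counts per late-start count of PHKB circles, over all ends and at the 4 ends with at least 40 counts at both starts. The horizontal axis gives the shared end by distance from the RefSeq start (kb), the vertical axis the ratio, each point is 1 library and the short lines are means of 2. The knockdown points lie below both control points over all ends and at 86.2, 135.2 and 149.6 kb, and between the control points at 54.3 kb.

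Some ends were joined mostly to the early start. The end at 47589102 had 269 early-start counts and 3 late-start counts, that at 47650921 had 144 and 8, and that at 47641692 had 167 and 30. The shares of the 4 most used ends overlapped between the groups. The most used, 47515601, held 30.3% and 29.1% of PHKB counts in the controls, against 29.2% and 32.3% in the knockdowns, and the shares of 47610920, 47547548 and 47596531 were between 10.6% and 24.5% in all libraries. Of the less used ends, 47589102 held 4.09% and 3.61% of PHKB counts in the controls, against 5.29% and 4.77% in the knockdowns. The end at 47650921 held 2.74% and 2.28%, against 3.23% and 2.79%, so that both ends had a larger share in the knockdowns, without overlap. The share of 47641692 overlapped, at 3.80% and 2.54% against 3.23% and 2.97%. For any such separation of 2 libraries from 2, an exact permutation test cannot go below p = 0.333. By size, circles of 14 or more exons held 19.6% and 16.99% of PHKB counts in the controls, against 16.0% and 11.6% in the knockdowns, and those of 9 to 13 exons held 28.5% and 29.3% against 35.1% and 33.3%. The groups did not overlap in either size class, and they overlapped for 1 to 5 and for 6 to 8 exons. Circles of 14 or more exons include the 14-exon circle that led to the choice of the gene. That circle alone held 8.47% and 7.81% in the controls, against 3.96% and 2.79% in the knockdowns. The lower share of this class is therefore not separate from that choice.

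A less used start lay between the 2 exons, at 47487460, where an 84 nt block opened 4 circles of intron type. These had 14 and 14 counts in the controls, against 2 and 4 in the knockdowns, or 2.74 ± 0.317 and 0.866 ± 0.224 per 100000 (SD, n = 2). Of the knockdown values, 0.707 and 1.02, the first is under the level that 3 counts give in that library.

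The alpha subunit genes gave little circular RNA. PHKA2 (ENSG00000044446.12, chromosome X, 18892298 to 18984114, minus strand) had 16 and 11 counts in the controls, against 6 and 7 in the knockdowns, over 18 circles. This is 3.39 and 1.98 per 100000 in the controls, against 2.12 and 1.79 in the knockdowns, means of 2.68 ± 0.997 and 1.96 ± 0.233 (SD, n = 2), and the groups overlapped. The fitted log2 fold change was -0.12. None of its circles was seen in all 4 libraries or reached 10 counts. One of its 2 circles with 4 counts, a 9-exon circle from 18905758 to 18920201 (1115 nt), had 1 count in control 1 and 3 in knockdown 2. The next were a 5-exon circle from 18908801 to 18924134 (646 nt), a 9-exon circle from 18908801 to 18929306 (1115 nt) and an unspliced intron-type circle from 18980698 to 18982826 (2129 nt), with 3 counts each and none in a knockdown. Of the PHKA2 counts in control 1, 62.5% were of intron type, as in a 4-block circle from 18943291 to 18952780 (969 nt) seen in control 1 alone with 4 counts, and the part of that library's intron-rich content in them was not tested.

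PHKA1 (ENSG00000067177.15, chromosome X, 72578814 to 72714306, minus strand) was nearer to the limit of detection. It had 4 and 0 counts in the controls, against 6 and 0 in the knockdowns, over 5 circles of which 1 had no count. The 4 counts of control 1 came from 1 intron-type circle, 72693147 to 72695910 (2764 nt), seen in no other library. The 6 counts of knockdown 1 came from 3 circles with 2 each, which were a 5-block intron-type circle from 72580340 to 72604173 (3278 nt), a 22-exon circle from 72605271 to 72695876 (2530 nt) and an 11-exon circle from 72635155 to 72676150 (1177 nt). The circles of the 2 PHKA1 libraries with counts were thus entirely different. The fitted log2 fold change of 1.60 rests on these 10 counts. No difference was detectable at this depth for either alpha subunit.

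Set against the span of each gene, PHKB stood far above the alpha subunit genes. It had 183 and 203 counts per 100000 per 100 kb of gene in the controls, against 100 and 118 in the knockdowns. PHKA2 had 3.69, 2.15, 2.31 and 1.95 in the same order of libraries, and PHKA1 had 0.625, 0, 1.57 and 0. The order PHKB over PHKA2 over PHKA1 held in every library, and the 2 alpha subunit genes were separated by less than 1 per 100000 per 100 kb in knockdown 1.

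The catalytic subunit genes PHKG1 and PHKG2 had no circle count. Of the calmodulin genes, CALM2 had 1 and 9 counts in the controls, against 6 and 3 in the knockdowns, and CALM3 had 2 counts in all. Among the subunit genes described, circular RNA thus came chiefly from the beta subunit gene.

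Across the wider glycogen pathway no host gene passed the test. A list of 47 genes was drawn up by role and with earlier results of these data known. Of these, 35 had counts and 23 had the 10 counts needed, and 0 were called in either direction by edgeR at an adjusted p of 0.05. With an unadjusted p under 0.05 there were 3, and DESeq2 called 0. Over all 8388 host genes 0.429% were called higher and 0% lower. The median log2 fold change of the 23 was -0.17, beside -0.26 over all host genes.

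None of the 5 tested genes of glycogen breakdown was called. Among them PGM2L1, a glucose-1,6-bisphosphate synthase, had 7.62 and 11.3 per 100000 in the controls, against 5.31 and 7.17 in the knockdowns, without overlap, and PGM2, a phosphopentomutase, had 30 counts in all. For glycogen synthesis, UGP2, which makes UDP-glucose, had 19.7 and 20.7 in the controls, against 12.0 and 14.6 in the knockdowns (adjusted p = 0.744, edgeR), and GBE1, the branching enzyme, had 2.54 and 5.75 against 3.54 and 4.87. None of 3 tested was called.

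In the phosphatase and synthase kinase role, GSK3B, which inhibits glycogen synthase, stood at 64.3 and 57.1 in the controls, against 29.7 and 30.7 in the knockdowns, with a fitted log2 fold change of -0.69 (adjusted p = 0.398, edgeR). PPP1CB, a catalytic subunit of the phosphatase that opposes phosphorylase kinase, had 33.0 and 39.2 against 35.4 and 39.7. PPP1CC, another catalytic subunit, had 61 counts in all. Of the kinases upstream, PRKACB, a catalytic subunit of cAMP-dependent protein kinase, had 11.9 and 31.4 in the controls, against 47.0 and 52.5 in the knockdowns (log2 fold change 1.45, adjusted p = 0.298, edgeR). PRKAR1A, a regulatory subunit, had 26.7 and 7.73 against 5.66 and 4.10 (-1.45, adjusted p = 0.325, edgeR). In both the controls differed from each other by more than 2-fold. PRKAA1, a catalytic subunit of AMP-activated protein kinase, had 25.2 and 58.9 against 47.0 and 47.9, which overlapped, and 0 of 4 tested genes of that kinase were called.

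**Figure D4:**
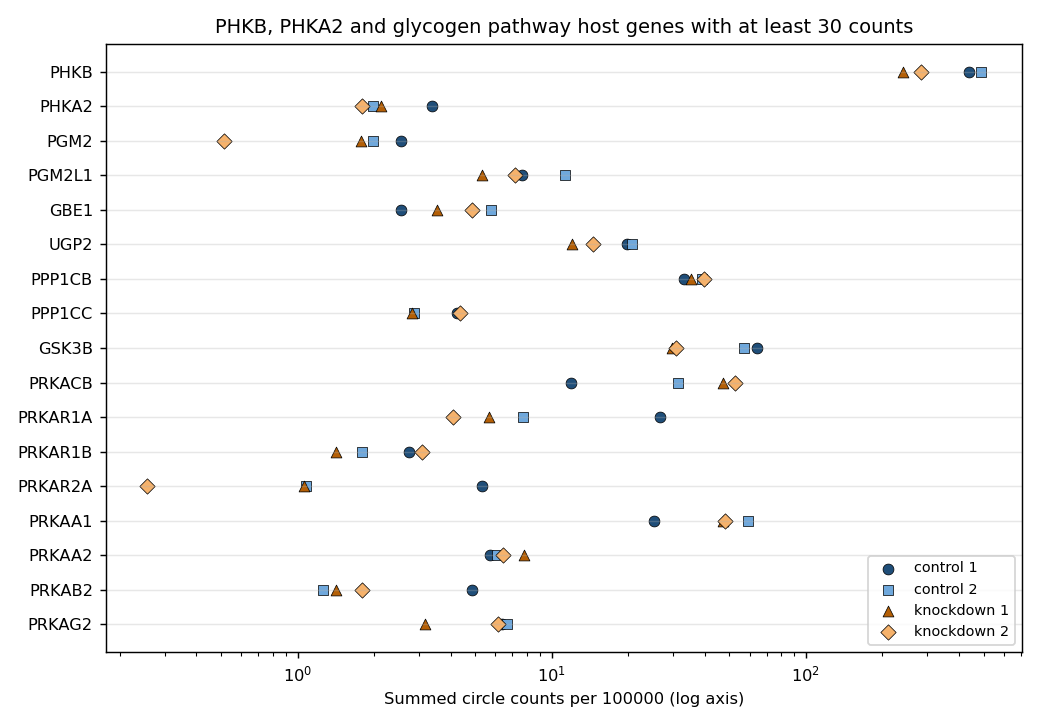
Summed circle level of PHKB, PHKA2 and glycogen pathway genes with at least 30 counts, 17 genes in all. Some pathway genes with that many counts are not plotted. The horizontal axis gives counts per 100000 on a log axis and each point is 1 library. PHKB lies between 241 and 488 and every other gene plotted under 65. Among the plotted genes, PRKACB and PRKAA2 have both knockdown points to the right of both controls.

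Genes beside PHKB on chromosome 16 gave no common direction. Among host genes with at least 10 counts and circles within 1 Mb of those of PHKB, none that shares no circle with PHKB passed the test. SHCBP1 had 10.2 and 10.2 per 100000 in the controls, against 2.48 and 1.54 in the knockdowns (fitted log2 fold change -2.05, adjusted p = 0.157, edgeR), and DNAJA2, a co-chaperone, had 8.26 and 9.52 against 2.83 and 3.07 (-1.28). ITFG1, whose gene adjoins PHKB, had 9.53 and 5.21 against 5.66 and 7.94, which overlapped. NETO2 was higher in both knockdowns, with 14.4 and 17.6 against 19.1 and 19.2 (0.55). Of the others with a gene symbol, VPS35, LONP2 and N4BP1 had fitted values of -0.25, 0.05 and -0.02. C16orf87 had 15 counts in all, and most counts of SIAH1 (44 of 49) and all 10 of ITFG1-AS1 came from control 1. The other rows in this window carry the names Y_RNA and 5S_rRNA, both higher in the knockdowns with 47 and 36 counts in all, and ENSG00000261131 and ENSG00000280376, both lower (-1.47 and -0.65). Y_RNA and 5S_rRNA lie within the span of ITFG1, and ENSG00000261131 and ENSG00000280376 within that of VPS35. A circle may therefore count for both, and these names may not be separate neighbours. The low level of PHKB circles in the knockdowns was thus shared by some of its neighbours and not by others.

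The host genes whose pattern over the 4 libraries was nearest to that of PHKB were GOPC, THBS1, WDR7, ENSG00000279366 and FMC1-LUC7L2. Nearness was the Euclidean distance between log2(counts per 100000 + 0.5) values centred on each gene's mean, over 4 libraries and 4772 genes. GOPC, the nearest at 0.0178, had 15.5 and 16.9 in the controls, against 8.13 and 9.73 in the knockdowns. The others lay at distances of 0.0573 to 0.0928 and were between 1.75-fold and 2.02-fold lower in the knockdowns. Over 4 libraries this nearness is a description of these values only.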

How the data were processed

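Circular RNA of 4 nanopore libraries was analysed from the table of raw counts that the authors deposited, with 1 row per back-splice, whole counts and no normalization. Its columns name CIRI-long as the circle caller, per the file headers; the caller's version, the read aligner and the filters are not given in the sources used here. The submitters' processing notes name GRCh38.p14 and DESeq2. Reads were amplified and carry no molecular identifiers.

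Counts per 100000 are counts divided by the library total. Circles and host genes (sums over every circle that names the gene and is not antisense; a circle counts for each gene it names) with at least 10 counts were fitted with edgeR 4.0.16 (R 4.3.3; TMM, quasi-likelihood F test, default dispersion method, Benjamini-Hochberg over all features, threshold 0.05). DESeq2 1.42.0 was an alternative. On counts simulated with 8-fold changes, the circle test recovered 0.5% and the host gene test 48% of changed features. The simulation gave all features of a level the same dispersion, so recovery for abundant circles was not measured apart. With 2 libraries a group, p-values measure only the spread between these libraries.

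The members, the pathway list and the comparisons were chosen with earlier results of these data known. Circles were named by summed count (10 of PHKB, 5 of each alpha subunit gene), pathway genes by the largest counts per role (up to 3), neighbours within 1 Mb with at least 10 counts, and the 5 host genes nearest in pattern among those with at least 40 counts. Exon content was read from the first structure listed for a circle. The comparisons of early and late start and of exon content were added after the values had been seen. Libraries of the same number were not treated as pairs, since the labels give no shared origin and their deviations correlated at r = 0.07 over 4944 circles. Some genes of the pathway list are not reported here by name. Sequence beside the junctions and protein sequence were not used here.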

Additional observations from a re-analysis of the deposited data

How the results depend on the processing

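The sum of PHKB kept its negative direction under all 10 alternatives. Its log2 fold change of -0.52 was -0.84 when scaled to the library total. It ranged from -0.66 to -0.17 when 1 library was left out, the last without control 2. With circles naming 1 gene alone it was -0.44, a value that includes none of the 15 circles with at least 40 counts. The median of the 10 most abundant PHKB circles (-0.81) ranged from -0.99 to -0.55 without 1 library, and the log2 change of early over late start (-0.62) from -0.76 to -0.47. That change was -0.39 without the end at 47610920 and -0.45 with starts at 47463899 alone. With the replicate block it equals the main value by construction. The changes within same-numbered libraries were -0.52 and -0.72. All 80 alternative values for single PHKB circles were negative, 22 of them moved by more than the replicate spread. PHKA2 (-0.12) was -0.48 with the library total, but 0.13 with circles naming 1 gene alone and 0.20 without control 1, so it has no settled direction. PHKA1 had too few counts for a value without control 1, without knockdown 1 or with exon circles alone.

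The count of host genes called moved under all 13 alternatives, that of circles under 6 of 11 and that of pathway genes under 4 of 13, and the cause was not tested. Circles called (0) became 1085 with DESeq2, 1653 with the replicate block, 471 unfiltered, 1404 when 5 counts were asked of 2 libraries, and 0 to 6392 without 1 library. Host genes called (36) became 59 with the library total, 61 with size factors of DESeq2, 185 with DESeq2, 391 with the replicate block, 0 with the newer dispersion method, 413 unfiltered, 116 when 5 counts were asked of 2 libraries, 89 with circles naming 1 gene, 75 with exon circles, and 0 to 2768 without 1 library. Pathway genes called (0) became 2 with no filter and 2 with the replicate block, each time higher, and 0 to 8 without 1 library. The largest counts came without control 2, where control 1 alone stands for the controls and is assumed to vary like the knockdowns. Depth limits PHKA1 and PHKA2, which have 10 and 40 counts.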
